A study of Mus musculus with 12 samples.

Results

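Complement is a cascade of plasma and cell-surface proteins that marks surfaces and dying cells for clearance. Described here are 8 of its genes, chosen by name as stromal complement components and regulators with the C1q chains left out, among the 41709 genes of an RNA table from mouse aortic valve leaflets. The components were C1ra and C1s1 (the serine proteases C1r and C1s), C4b, C3 and Cfb, and the regulators were Serping1, Cd55 and Cd59a. None of the 7 that passed a filter on low counts differed between genotypes at an adjusted p under 0.05. By median transcripts per length, Serping1 and Cd59a were the 2 most abundant of the 8. Cfb was last, with 16 counts in all, and most of its read-length stretches also occur in an overlapping gene.

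The leaflets came from mice aged 2 months on a mixed C57BL/6J;129SvEv background, in 4 genotype groups with 3 libraries each. The labels give the genotypes only as DKO, SMKO, ECKO and CTRL. In the study as it is known, the matrix glycoprotein gene Efemp2 (fibulin-4) was deleted in endothelial and smooth muscle cells together (DKO), in smooth muscle cells (SMKO) or in endothelial cells (ECKO), and CTRL mice served as controls. The sources used here do not give the promoters that drove the deletions, the alleles that CTRL mice carried or the number of animals behind each library. Hearts were fixed and frozen, and leaflets were cut from sections by laser, so a library averages all cells of the leaflet. In such bulk samples, fewer cells of a type and less RNA per cell cannot be told apart.

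In the classical pathway, C1q bound to a surface activates C1r, which activates C1s, and C1s cleaves C4 and C2 to build an enzyme that splits C3. C3 is the point where all pathways meet, and factor B, the product of Cfb, drives the amplifying loop of the alternative pathway. Host cells limit the cascade with the C1 inhibitor (Serping1), which blocks C1r and C1s, with Cd55, which speeds the decay of the C3-splitting enzymes, and with Cd59a, which blocks the membrane attack complex. The liver makes most plasma complement, and fibroblasts and macrophages make it locally.

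Library depth set the precision. Totals ran from 74827 counts in SMKO 3 to 615665 in ECKO 2 (median 321312), and mitochondrial transcripts took from 10.5% to 28.5% of counts, with the highest shares in SMKO 3 and CTRL 3. The 8 genes held 3811 counts in all, 0.0880% of the total. Efemp2, the targeted gene, had 0, 0 and 0 counts in DKO, 4, 0 and 0 in SMKO, 3, 15 and 8 in ECKO, and 58, 23 and 9 in CTRL. All 10 valve interstitial markers were detected in every group, with a summed level of 39861 to 52860 CPM (counts divided by the library's total, scaled by TMM) in DKO, 26446 to 58808 in SMKO, 34299 to 46026 in ECKO and 37393 to 44087 in CTRL. Adventitial fibroblast markers (5 genes, of which 2 were at 0 in DKO and 1 in CTRL) summed to 2084 to 2227 CPM in DKO, 787 to 2937 in SMKO, 810 to 922 in ECKO and 752 to 1010 in CTRL, so DKO lay above ECKO and CTRL. Of the 6 melanocyte markers 5 could be tested, and 1 was called higher in DKO against ECKO (edgeR). The part of these shifts in the complement levels was not tested. Hepatocyte markers, which include Alb (albumin), summed to 137 counts in CTRL 1, 20 in SMKO 1 and 0 to 7 elsewhere, and all 5 neutrophil markers together had 8 counts in the 12 libraries.

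Sequence bears on how these genes were counted and on what stands upstream of them. Near copies share reads. Of all stretches of 75 bases (the read length) in the gene's transcripts, 42.4% for C1ra also occur in another gene (40.1% in C1rb), 22.7% for C4b (all in C4a), 24.8% for C1s1 (12.95% in C1s2) and 69.9% for Cfb (in Gm20547, which overlaps Cfb on the same strand). The shares were 6.13% for Cd55, 1.66% for Cd59a, and 0 for C3 and Serping1. C4a and C1rb were listed at 0 counts in all libraries and C1s2 had 1, so the division of reads within these pairs is uncertain. Whether reads of Cfb were assigned to Gm20547 was not tested, so the level of Cfb is uncertain too. C1s1 and Cd55 also overlap antisense genes, from which a kit that does not keep strand cannot separate them.

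RefSeq promoters (mouse build GRCm38.p6, 250 bases before to 50 after the start) were matched for 5 of the 8 genes, and none is shown for C4b, Cfb or Serping1. They were searched on both strands for motifs of factors that carry cytokine signals: TTCNNNGAA (STAT), GAAANNGAAA (interferon-stimulated response element), TTGCNNAA (C/EBP) and GGGNNNTTCC (NF-κB). These letters occur in 8.30%, 3.44%, 10.8% and 5.56% of 32851 mouse promoters of that length, in the same order. The windows of C3 (chr17:57228087-57228386, minus strand), C1ra (chr6:124512371-124512670, plus strand), C1s1 (chr6:124542310-124542609, minus strand) and Cd59a (chr2:104095551-104095850, plus strand) each held a match and are shown, with matches in capitals, 5′ to 3′ along the gene's strand.
C3: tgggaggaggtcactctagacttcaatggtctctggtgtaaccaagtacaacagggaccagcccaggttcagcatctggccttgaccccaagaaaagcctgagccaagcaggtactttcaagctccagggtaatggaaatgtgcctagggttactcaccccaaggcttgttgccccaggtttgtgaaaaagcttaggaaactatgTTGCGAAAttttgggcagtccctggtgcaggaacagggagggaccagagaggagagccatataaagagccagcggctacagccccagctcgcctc
C1ra: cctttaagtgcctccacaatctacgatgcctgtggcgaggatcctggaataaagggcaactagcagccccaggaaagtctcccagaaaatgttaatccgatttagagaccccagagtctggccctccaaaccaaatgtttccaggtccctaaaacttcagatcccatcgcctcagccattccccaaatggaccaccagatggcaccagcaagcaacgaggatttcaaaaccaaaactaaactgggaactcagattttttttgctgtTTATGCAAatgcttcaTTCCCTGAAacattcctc
C1s1: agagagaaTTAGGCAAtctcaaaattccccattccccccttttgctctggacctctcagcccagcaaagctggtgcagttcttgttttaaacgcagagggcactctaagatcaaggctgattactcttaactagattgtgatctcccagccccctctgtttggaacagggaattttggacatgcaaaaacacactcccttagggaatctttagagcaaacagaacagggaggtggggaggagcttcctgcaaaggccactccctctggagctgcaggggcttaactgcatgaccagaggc
Cd59a: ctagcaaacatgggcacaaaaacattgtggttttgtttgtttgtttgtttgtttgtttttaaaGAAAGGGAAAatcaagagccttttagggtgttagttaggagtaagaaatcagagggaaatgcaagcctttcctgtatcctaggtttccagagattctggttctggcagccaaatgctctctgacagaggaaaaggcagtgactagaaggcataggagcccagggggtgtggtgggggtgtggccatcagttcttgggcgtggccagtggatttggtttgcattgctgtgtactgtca
With the start base counted as 0, the C/EBP match of C3 lies at offset -45 and that of C1s1 at -242. RefSeq gives C1s1 a second start, whose window (chr6:124542272-124542571, minus strand) held none of the 4 motifs. C1ra holds a C/EBP match at 16 and a STAT match at 32, both downstream of its start. Cd59a holds an interferon-response match at -187, and Cd55 held none of the 4 motifs. A match is a string of letters and not a measured site.

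Levels were compared between genes in TPM, which divides by transcript length and then by the library's sum. The regulators Serping1 and Cd59a led, with medians over 12 libraries of 144 and 124 TPM. Medians were 78.2 for C4b, 60.5 for C1ra, 50.6 for Cd55, 12.6 for C1s1, 10.6 for C3 and 1.21 for Cfb. Cd55, also a regulator, stood below C4b in 9 of 12 libraries and below C1ra in 8 of 12. Serping1 and Cd59a stood above C4b in all 12 libraries. Other places changed between libraries: Serping1 was above Cd59a in 8 of 12 and Cd55 above Cd59a in 2 of 12. Further down, C4b was above C1ra in 10 of 12 libraries and C3 above C1s1 in 7 of 12. By mean TPM, Serping1 stood at the 96.2nd percentile of genes with a count, Cd59a at the 95.8th, C3 at the 66.0th and Cfb at the 33.2nd. The summed TPM of the 3 regulators was 1.39 to 2.73 times that of the 5 components, with a median ratio of 2.03. C4b exceeded C3 by 3.67 to 21.2 times (median 6.17), and C1ra exceeded C1s1 by 1.86 to 8.02 times in the 10 libraries where C1s1 had a count (median 4.33).

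**Figure D1:**
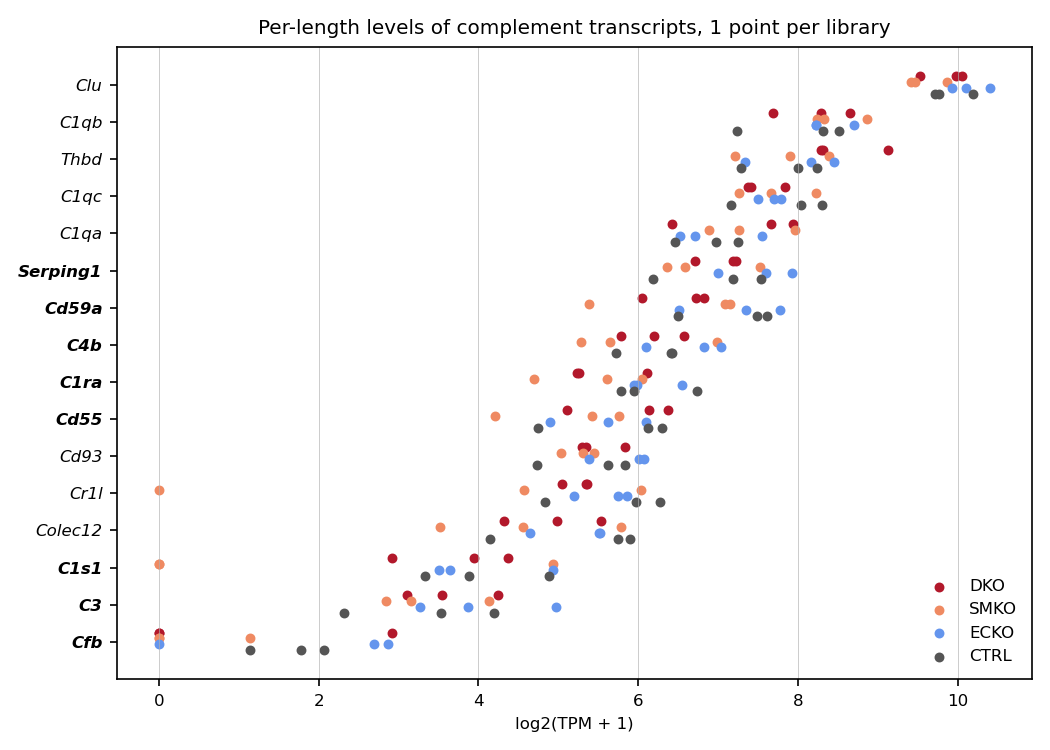
Per-length level, as log2(TPM + 1), of the 8 complement genes (bold) and of 8 other complement genes, with 1 point per library and colours for DKO, SMKO, ECKO and CTRL. By median, Serping1 and Cd59a lead the 8 genes and Cfb is last, while Clu (clusterin), outside the 8, is higher still.

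Of the classical pathway proteases, C1ra had 77.2, 51.8 and 137 CPM in DKO, 97.0, 71.9 and 96.6 in SMKO, 123, 89.0 and 129 in ECKO, and 134, 72.6 and 149 in CTRL. Every group's range crossed every other's. The mean was 88.6 ± 43.7 CPM in DKO, 88.5 ± 14.4 in SMKO, 113 ± 21.4 in ECKO and 118 ± 40.3 in CTRL (SD, n = 3 libraries each). The log2 fold change was -0.42 ± 0.33 (SE) in DKO over CTRL (95% interval -1.08 to 0.25, adjusted p = 0.686, edgeR), and it ran from -0.87 without DKO 3 to -0.07 without DKO 2. C1s1, which C1r activates, was much scarcer, with 3, 14 and 7 counts in DKO, 26, 0 and 0 in SMKO, 4, 30 and 7 in ECKO, and 25, 12 and 3 in CTRL. Its zeros fell in SMKO 2 and SMKO 3, where 3 counts would equal 15.4 and 41.4 CPM, and the second of these lies above nearly every level seen. C1s1 averaged 23.5 ± 8.58 CPM in DKO, 14.7 ± 25.5 in SMKO, 26.8 ± 14.9 in ECKO and 25.8 ± 9.43 in CTRL, and its interval in DKO over CTRL ran from -1.41 to 1.15 on the log2 scale.

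C4b, the substrate of C1s, had the most counts of the 8 genes, at 1165 in all. Its levels were 204, 185 and 344 CPM in DKO, 339, 200.3 and 179 in SMKO, 241, 299 and 328 in ECKO, and 194, 207 and 230.3 in CTRL. All 3 ECKO libraries lay above all 3 CTRL libraries, while DKO and SMKO each had 1 library well above the other 2. Group means were 245 ± 86.8 CPM in DKO, 239 ± 86.5 in SMKO, 289 ± 44.6 in ECKO and 210.4 ± 18.5 in CTRL. The log2 fold change was 0.22 ± 0.28 in DKO over CTRL (adjusted p = 0.839, edgeR), 0.28 ± 0.28 in SMKO over CTRL (adjusted p = 0.941) and 0.49 ± 0.27 in ECKO over CTRL (95% interval -0.07 to 1.04, adjusted p = 0.998).

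C3 was sparse, at 6, 13 and 15 counts in DKO, 25, 6 and 2 in SMKO, 9, 53 and 9 in ECKO, and 26, 6 and 6 in CTRL. As levels these were 27.2, 25.9 and 62.2 CPM in DKO, 42.5, 30.8 and 27.6 in SMKO, 46.1, 77.3 and 20.7 in ECKO, and 37.9, 9.27 and 44.6 in CTRL. The highest was ECKO 2 and the lowest CTRL 2, and all groups overlapped. The log2 fold change of C3 was 0.92 ± 0.50 in ECKO over CTRL (95% interval -0.12 to 1.96, adjusted p = 0.998, edgeR) and 0.45 ± 0.55 in DKO over CTRL (-0.70 to 1.60, adjusted p = 0.833). In ECKO over CTRL it was 0.16 without ECKO 2, 0.36 without CTRL 2 and 1.56 without CTRL 1. CTRL 1, the library with 137 counts of hepatocyte markers, lay between the other CTRL libraries in C3, and the part of hepatocyte RNA in C3 was not tested. Cfb had 0, 0 and 3 counts in DKO, 1, 0 and 0 in SMKO, 2, 6 and 0 in ECKO, and 1, 2 and 1 in CTRL, 16 in all. It did not pass the filter on low counts. In edgeR with no filter the log2 fold change of Cfb was 0.19 ± 1.34 in DKO over CTRL (unadjusted p = 0.887), and the smallest unadjusted p of Cfb in any comparison was 0.153, in SMKO over ECKO.

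Among the regulators, Serping1 (C1 inhibitor) had 145, 141 and 195 CPM in DKO, 184, 185 and 110.4 in SMKO, 169, 191 and 227 in ECKO, and 159, 131 and 119 in CTRL. All ECKO libraries lay above all CTRL libraries, and DKO and SMKO overlapped CTRL. Serping1 averaged 161 ± 29.8 CPM in DKO, 159.7 ± 42.7 in SMKO, 196 ± 29.4 in ECKO and 136 ± 20.5 in CTRL. Its log2 fold change in ECKO over CTRL was 0.50 ± 0.24 (95% interval 0.01 to 1.00), with an unadjusted p of 0.0477 and an adjusted p of 0.998 (edgeR). In DKO over CTRL it was 0.19 ± 0.25 (adjusted p = 0.845). Unlike C4b and C1ra, Serping1 shares no stretch of read length with another gene.

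Cd55 (decay-accelerating factor) had 168, 135 and 78.8 CPM in DKO, 73.2, 179.7 and 41.4 in SMKO, 66.6, 83.2 and 110.2 in ECKO, and 102, 122 and 74.3 in CTRL. SMKO held both the highest and the lowest library, the lowest resting on 3 counts. The means were 127 ± 45.1 CPM in DKO, 98.1 ± 72.5 in SMKO, 86.6 ± 22.0 in ECKO and 99.5 ± 24.0 in CTRL. The log2 fold change was 0.29 ± 0.33 in DKO over CTRL (adjusted p = 0.816, edgeR) and 0.52 ± 0.34 in DKO over ECKO (adjusted p = 0.623).

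Cd59a, the inhibitor of the membrane attack complex, had 81.7, 89.6 and 137 CPM in DKO, 128, 71.9 and 166 in SMKO, 107.5, 144 and 184 in ECKO, and 150.1, 145 and 134 in CTRL. Both of the lower DKO libraries lay below all CTRL libraries, and the third lay within the CTRL range. The mean was 103 ± 29.8 CPM in DKO, 122 ± 47.1 in SMKO, 145 ± 38.1 in ECKO and 143 ± 8.41 in CTRL. Cd59a came nearest to a call among the 8 genes. Its log2 fold change was -0.51 ± 0.28 in DKO over CTRL (95% interval -1.08 to 0.06, unadjusted p = 0.0791, adjusted p = 0.505, edgeR). For smooth muscle deletion averaged over endothelial status it was -0.43 ± 0.20 (unadjusted p = 0.0396, adjusted p = 0.440, edgeR). The authors' deposited fold changes are signed ratios and not log2 values. In the authors' deposited table that of Cd59a was -1.49 in DKO against CTRL, with a p-value of 0.0571. In the authors' deposited table it was -1.51 in DKO against ECKO, with a p-value of 0.0472. The unadjusted edgeR p of Cd59a was 0.0590 there. Deposited p-values of the other genes ran from 0.144 (Cd55, DKO against ECKO) to 0.905 (C1ra, DKO against SMKO).

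**Figure D2:**
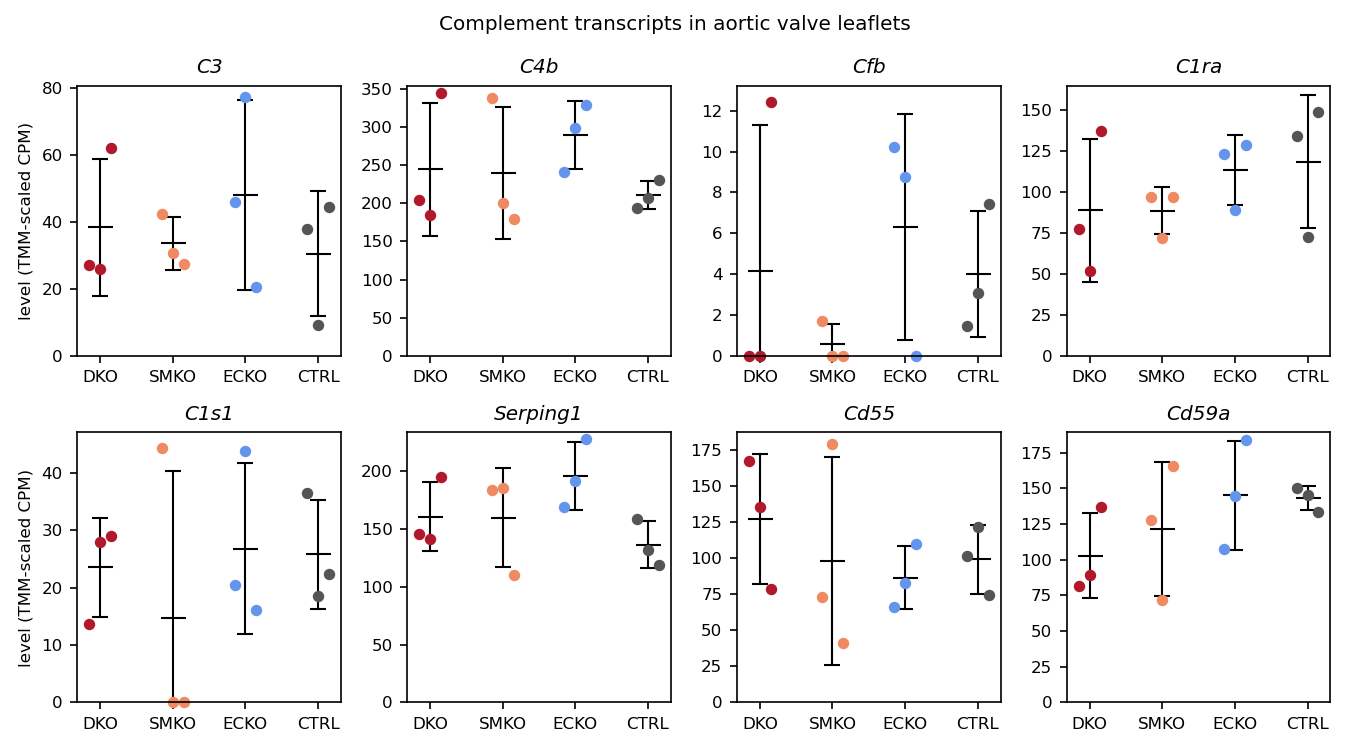
Level of each complement gene in TMM-scaled CPM, by group from DKO to CTRL, with 1 point per library and bars for the mean and SD of 3 libraries, cut at 0. In C4b and Serping1 the ECKO points lie above the CTRL points, and in the other panels every group overlaps CTRL.

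The tests were read off 1 edgeR quasi-likelihood fit of 6296 genes over all 12 libraries, with Benjamini-Hochberg adjustment over those genes. In DKO against CTRL, 0 of the 7 tested complement genes passed, where 0.492% of all genes did. DESeq2 and limma-voom called none of them either. None reached an unadjusted p under 0.05, against 11.6% of all genes, and none separated the DKO from the CTRL libraries, against 17.8% of all genes. The median log2 fold change of the 7 was 0.19, and that of all genes was 0.02. The 95% intervals bound what could have been missed. That of Serping1 ran from -0.32 to 0.71 and that of C4b from -0.35 to 0.79. A doubling of either lay outside its interval, while the interval of C3 reached 1.60. Those of C1ra and Cd59a reached down to -1.08, and that of C1s1 ran from -1.41 to 1.15. A halving of C1ra, Cd59a or C1s1 thus lay inside its interval.

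In ECKO against CTRL no gene of the table passed in edgeR (0%), and 4.34% had an unadjusted p under 0.05, among them Serping1 alone of the 7. DESeq2 called 2 genes, neither of them among the 7, and limma-voom called 0. C4b and Serping1 were the 2 of 7 whose ECKO libraries all lay higher, and 5.73% of all genes did so. In SMKO against CTRL the counts were again 0 of 7 and 0% of all genes with edgeR, 0 with DESeq2 and 0 with limma-voom. None of the 7 had an unadjusted p under 0.05 there, against 5.48% of genes, and their adjusted p ran from 0.941 to 0.999. The median log2 fold change of the 7 was 0.12 in ECKO over CTRL and -0.03 in SMKO over CTRL, beside medians near 0 for all genes. These comparisons and that of DKO share the CTRL libraries.

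**Figure D3:**
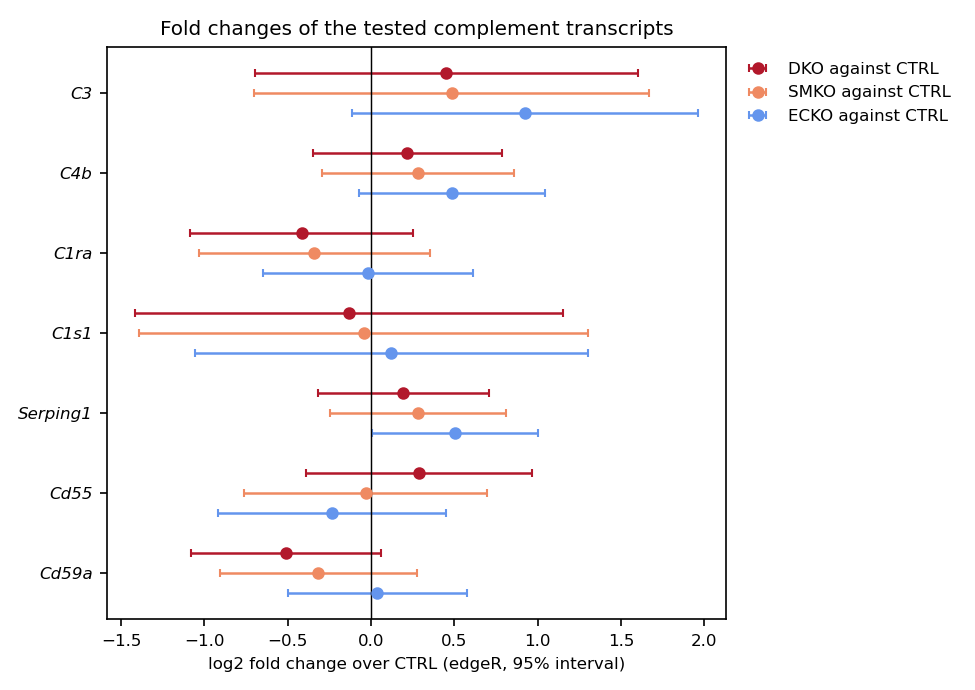
Log2 fold change of the 7 tested complement genes in DKO, SMKO and ECKO, each over CTRL, with 95% intervals from the edgeR fit. Only the interval of Serping1 in ECKO over CTRL, 0.01 to 1.00, leaves out 0, and it did not pass after adjustment.

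Between the deletion groups, 0 of 7 passed in DKO against ECKO, where 0.572% of all genes passed, and 10.8% had an unadjusted p under 0.05, with none of the 7 among them. The smallest adjusted p was 0.490 for Cd59a (log2 fold change -0.55 ± 0.28, edgeR). In DKO against SMKO and in SMKO against ECKO, 0 of 7 and 0% of all genes passed with edgeR, and none of the 7 had an unadjusted p under 0.05, against 6.29% and 3.8% of genes. DESeq2 called 3 genes in DKO against SMKO and 2 in SMKO against ECKO, and limma-voom called 54 and 0. None of the 7 was among them. The design also allows the deletions to be averaged. For smooth muscle deletion 0 of 7 passed (0.206% of all genes), and Cd59a alone had an unadjusted p under 0.05 (10.5% of all genes). For endothelial deletion 0 of 7 passed (0%), and for the interaction of the deletions 0 of 7 (0.0318%), with none of the 7 at an unadjusted p under 0.05 (4.99% and 6.23% of all genes). The interaction of Serping1 was -0.59 ± 0.36 on the log2 scale (adjusted p = 0.857, edgeR), so a difference of its endothelial effect with smooth muscle status was not shown. For any difference among the 4 groups 0 of 7 passed (0.302% of all genes, and 8.99% at an unadjusted p under 0.05, none of them among the 7), with adjusted p from 0.782 for Cd59a to 0.995 for C1s1.

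Another 49 complement genes, listed by role, set these in context. Counts were absent in all libraries for 9 of them and 15 had 1 to 9 counts. The 7 terminal components, which form the membrane attack complex that Cd59a blocks, had 6 counts together, and 3 of them had none. Only 9 of the 49 could be tested, and none passed in any comparison with edgeR.

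Thbd (thrombomodulin), an endothelial receptor that also supports inactivation of C3b, had 804, 978 and 796 CPM in DKO, 442, 1202 and 373 in SMKO, 394, 525 and 606 in ECKO, and 478, 428 and 475 in CTRL. All DKO libraries lay above all CTRL libraries, as in 9.7% of all genes, with a log2 fold change of 0.90 ± 0.32 (adjusted p = 0.222, edgeR). Endothelial markers, of which 9 of 10 could be tested, had a median log2 fold change of -0.96 in DKO over CTRL, with none called, and 2 were called lower in DKO against ECKO. Their summed level was 731 to 1008 CPM in DKO, 883 to 1601 in SMKO, 1167 to 1460.1 in ECKO and 949 to 1122 in CTRL, and its part in the level of Thbd was not tested. Cr1l (Crry), a membrane regulator of the C3-splitting enzymes in rodents, had a log2 fold change of -0.39 ± 0.34 in DKO over CTRL (adjusted p = 0.726). Clu (clusterin), a soluble inhibitor of the membrane attack complex, had one of 0.08 ± 0.31 (adjusted p = 0.964).

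The C1q chains start the classical pathway and come mainly from macrophages. Their log2 fold changes in SMKO over CTRL were 0.99 ± 0.46 for C1qa, 0.79 ± 0.32 for C1qb and 0.32 ± 0.28 for C1qc. In the same order, the unadjusted p was 0.0498, 0.0197 and 0.262 and the adjusted p 0.885, 0.874 and 0.941 (edgeR). Of all genes, 5.48% had an unadjusted p under 0.05 in that comparison. C1qa had 145, 41.8 and 170.0 CPM in DKO, 129, 154 and 82.8 in SMKO, 128, 46.7 and 50.5 in ECKO, and 67.0, 58.7 and 74.3 in CTRL, and all SMKO libraries lay above all CTRL libraries, as in 4.11% of all genes. Macrophage markers, all 12 detected in every group, summed to 723 to 1689 CPM in DKO, 649 to 3410 in SMKO, 677 to 1157 in ECKO and 708 to 1107 in CTRL, and their part in the C1q levels was not tested. Of the complement receptors, Cd93 and C1qbp could be tested and did not pass.

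**Figure D4:**
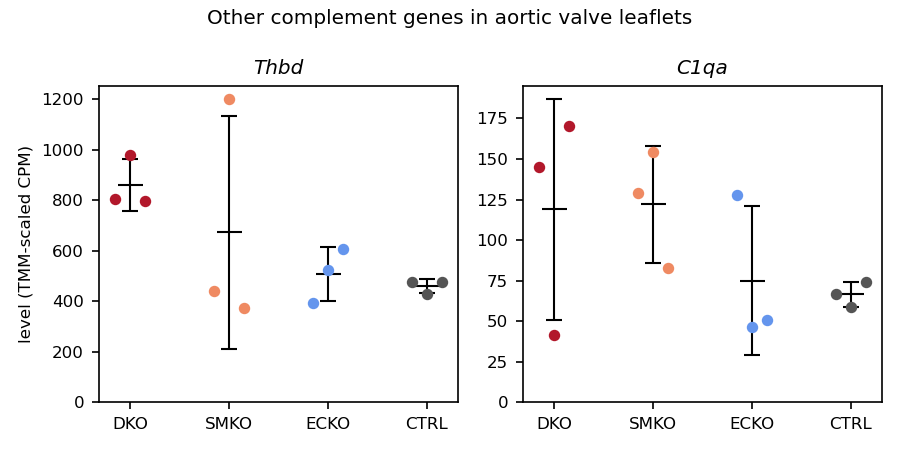
Level of Thbd and C1qa in TMM-scaled CPM, by group from DKO to CTRL, with 1 point per library and bars for the mean and SD of 3 libraries. The 3 DKO points of Thbd, at 796 to 978 CPM, lie above the CTRL points, at 428 to 478 CPM, and the SMKO points of C1qa lie above its CTRL points.

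Complement genes respond to interferon and acute-phase cytokines, and a list of 19 genes of those responses was read beside them. Of the 19, 12 could be tested and 0 passed in any comparison with edgeR. The 3 with the smallest p over the 4 groups were Cp, Ifngr1 and Irf1. Irf1, a transcription factor induced by interferon, had 13.6, 15.9 and 24.9 CPM in DKO, 37.4, 35.9 and 69.0 in SMKO, 35.8, 32.1 and 62.0 in ECKO, and 49.5, 43.3 and 14.9 in CTRL. DKO libraries were low and CTRL 3, with 2 counts, was low with them (log2 fold change -1.21 ± 0.45 in DKO over CTRL, adjusted p = 0.240). Ifngr1, a chain of the interferon gamma receptor, averaged 195 CPM in DKO, 191 in SMKO, 300 in ECKO and 194 in CTRL. Its log2 fold change was -0.61 ± 0.24 in DKO over ECKO (adjusted p = 0.316, edgeR). DKO lay near CTRL, and ECKO was the highest group. Cp (ceruloplasmin), a ferroxidase of the acute phase, averaged 96.9 CPM in DKO, 68.9 in SMKO, 150 in ECKO and 108 in CTRL. Its log2 fold change was -0.88 ± 0.29 in SMKO over ECKO (adjusted p above 0.99, edgeR), and SMKO 3 held 2 counts of it.

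Across the 12 libraries, the 21 pairs of tested complement genes correlated in log2 CPM with Pearson's r from -0.63 (Cd55 with Cd59a) to 0.74 (C4b with Serping1), with a median of 0.25. These values describe libraries that share depth and composition, and C3 and C1s1 rest on few counts. The genes most like each member among 6214 tested genes were Map3k6, Naglu and Mt2 for C3 (highest r 0.816), Zbtb16, Arhgef2 and Pdxk for C4b (0.878), Rps21, Ahsg and Mfn1 for C1ra (0.853) and Sdhd, Cuedc2 and Lama2 for C1s1 (0.897). For the regulators they were Polr2f, Lancl1 and Usf2 for Serping1 (0.845), Sertad4, Tspan3 and Mxra8 for Cd55 (0.974), and Ephx2, Hnrnph3 and Slc35b3 for Cd59a (0.894). The profile of Cd55 was matched most closely, with r above 0.9 for all 3 of its genes.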

How the data were processed

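The authors deposited 1 table in which, per the file headers, each of 12 libraries has whole-number counts per gene and TPM scaled by the authors within the library. Beside them stand the authors' deposited signed fold-change scores and p-values for DKO against each other group. The genome build was GRCm39, per the submitters' processing notes. The test behind the authors' p-values, the aligner, the annotation and the use of strand are each not given in the sources used here. Libraries were made with a tagmentation kit, per the labels' protocols, which does not keep strand.

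TMM scaling and edgeR 4.0.16 (R 4.3.3; quasi-likelihood F test, robust) were applied in a single fit over the 12 libraries, leaving 8 residual degrees of freedom. The filter asked for 10 counts or more, relative to library size, in 3 libraries or more. Calls were made at an adjusted p under 0.05, and a standard error is the size of the log2 fold change divided by the root of its F statistic. DESeq2 1.42.0 and limma 3.58.1 (voom with library weights), other scalings, no filter, a replicate block and leaving out each library were alternatives. The procedure was tested on simulated data. Read sharing was computed from transcripts of the older build GRCm38. Intervals cover counting error and the spread between these libraries, called biological triplicates in the design. The floor is a fixed 3 counts turned into CPM for each library and covers no spread between libraries. Replicates of a group differed by more than counting noise, so no libraries were merged.

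The 8 genes and the lists were chosen with earlier results of these data known. All 8 are reported. From the list of other complement genes, 1 was left out of every result and is not reported here. Of other lists, the 3 genes with the smallest p over the 4 groups are named. The genes most like a member are the 3 with the highest Pearson r of log2 CPM (prior count 2), predicted genes left out.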

Additional observations from a re-analysis of the deposited data

How the results depend on the processing

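None of the 7 tested complement genes passed in any of the 10 comparisons under any of 21 alternatives (18 planned and 3 added after seeing the data); the smallest adjusted p was 0.138, for C1s1 in the smooth muscle average without SMKO 1. Of 1323 fold values under alternatives, 1194 kept their sign and 129 turned; the results that turned had a median absolute log2 fold change of 0.11. The cause of the turns was not tested. Low counts limit C3, C1s1 and Cfb most.

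Signs turned as follows, in log2 fold change. DESeq2 gave Cd55 0.0085 in SMKO over CTRL, C3 0.049 and C1s1 0.14 in DKO over SMKO, C3 -0.017 in the smooth muscle average and C1s1 0.064 in the interaction. Library size alone gave C3 0.011 in DKO over SMKO, Cd55 -0.056 in SMKO over ECKO, and C3 -0.16 and C4b -0.15 in the smooth muscle average. No filter gave C3 -0.013 and C4b -0.016 in that average. Limma-voom gave C1s1 0.30 in SMKO over CTRL, C1s1 0.24 and Cd55 -0.15 in SMKO over ECKO, C4b -0.0073 and C1s1 0.055 in the smooth muscle average and C1s1 -0.18 in the endothelial average. Depth as a covariate, added after seeing the data, gave C1s1 0.39 in DKO over CTRL, 0.12 in DKO over ECKO and 0.17 in DKO over SMKO, C1s1 0.22 and Cd55 0.056 in SMKO over CTRL, and C1s1 0.17 and Serping1 0.048 in the smooth muscle average. Leaving out CTRL 3 and SMKO 3, added likewise, gave C1s1 0.12 and Cd55 0.032 in SMKO over CTRL, C1ra 0.11 in ECKO over CTRL, C1s1 0.018 in SMKO over ECKO, Serping1 0.0053 in the smooth muscle average, and C1ra 0.013, C1s1 -0.10 and Cd55 -0.092 in the endothelial average. Leaving out SMKO 2 and SMKO 3, added likewise, gave C1s1 0.72 in SMKO over CTRL, C4b 0.22, C1s1 0.59 and Cd55 -0.28 in SMKO over ECKO, C1s1 0.22, Serping1 0.031 and Cd55 -0.0099 in the smooth muscle average, and C4b -0.0072 and C1s1 -0.37 in the endothelial average; the lone SMKO library was assumed to vary like the others.

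With the replicate block, 0 of the 7 genes passed in any comparison, while calls over all genes numbered 50 in DKO against CTRL, against 31 without it, and the fold turned to 0.046 for C1s1 in DKO over CTRL, -0.032 for Cd59a in ECKO over CTRL, 0.062 for C3 and 0.19 for C1s1 in DKO over SMKO, and -0.015 for C3 and -0.0033 for C4b in the smooth muscle average. Deviations of libraries with the same number correlated at -0.14 to 0.18, with 5 of 18 pairs over 0.1, which falls short of every pair, so the numbers were not taken to pair the libraries. As a hint from the data and not the design, 10 of 12 libraries correlated best with their own number.

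When each library was left out in turn, the log2 fold change in DKO over CTRL ran from -0.12 to 1.09 for C3, -0.10 to 0.40 for C4b, -0.87 to -0.07 for C1ra and -0.41 to 0.32 for C1s1. In SMKO over CTRL it ran from -0.083 to 1.12 for C3, -0.11 to 0.44 for C4b, -6.31 to 0.42 for C1s1 and -0.64 to 0.33 for Cd55. In ECKO over CTRL it ran from 0.16 to 1.56 for C3, -0.32 to 0.19 for C1ra, -0.59 to 0.57 for C1s1 and -0.16 to 0.17 for Cd59a. In DKO over ECKO it ran from -0.93 to 0.29 for C3 and -0.55 to 0.46 for C1s1. In DKO over SMKO it ran from -0.49 to 0.28 for C3, -0.38 to 0.33 for C4b, -0.53 to 0.28 for C1ra, -0.58 to 6.18 for C1s1, -0.24 to 0.015 for Serping1 and -0.039 to 0.90 for Cd55. In SMKO over ECKO it ran from -0.83 to 0.30 for C3, -6.43 to 0.52 for C1s1 and -0.41 to 0.56 for Cd55. The smooth muscle average ran from -0.28 to 0.38 for C3, -0.19 to 0.095 for C4b, -3.28 to 0.19 for C1s1, -0.092 to 0.052 for Serping1 and -0.074 to 0.42 for Cd55. The endothelial average ran from -0.27 to 0.13 for C1ra, -0.33 to 3.15 for C1s1, -0.14 to 0.33 for Cd55 and -0.21 to 0.0034 for Cd59a. The interaction ran from -0.51 to 0.29 for C1ra and -0.71 to 6.06 for C1s1. The extremes of C1s1 came without SMKO 1, which leaves SMKO with 0 counts of it; a fitted fold against zeros is no bound.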

Other observations

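Within a library, the ratio of Serping1 to Cd59a in TPM does not depend on the scaling between libraries. It was 1.60, 1.42 and 1.28 in DKO, 1.30, 2.32 and 0.600 in SMKO, 1.42, 1.19 and 1.11 in ECKO, and 0.953, 0.814 and 0.800 in CTRL. Every DKO and ECKO library lay above 1 and every CTRL library below it, while SMKO fell on both sides, its lowest value resting on 8 counts of Serping1 and 12 of Cd59a. The ratio was chosen after its values were seen and was given no test. The share of other gene pairs that separate these groups in the same way was not computed.

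The summed TPM of the 8 genes was 344, 475 and 491 in DKO, 603, 258 and 338 in SMKO, 405, 641 and 769.7 in ECKO, and 684, 558 and 322 in CTRL, and all groups overlapped CTRL.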
